A study of Mus musculus with 57 samples.

Results

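The fibroblast growth factor (FGF) signalling genes described here comprised 10 of the 56860 genes in the count tables, chosen by name for their place in branching and growth. They were the ligands Fgf7, Fgf9, Fgf10 and Fgf18, the receptor Fgfr2, the feedback inhibitors Spry1, Spry2 and Spry4, and the transcription factors Etv4 and Etv5. Bulk RNA-seq was carried out on 57 libraries from wild-type (wt) and Hoxa5-/- mouse embryos of the 129/Sv background, in 7 contexts defined by tissue and embryonic day (E). The tissues were trachea, lung and diaphragm at E15.5, lung also at E12.5, trunk segments with the somites of the cervical to upper thoracic region (called somites here) from E10.5 and from E12.5 embryos, and the brown fat pad between the shoulder blades (iBAT), collected at E18.5. The mutant embryos were homozygous for a null allele that carries a neomycin cassette in the Hoxa5 homeobox, so Hoxa5 was lost in every cell and at every stage. Each genotype had 4 libraries in a context, with 2 exceptions: for iBAT there were 5, and for the E10.5 somites the Hoxa5-/- group held 3. The libraries of a group were biological replicates from different embryos, whose litters are not given in the sources used here.

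FGF ligands are secreted proteins that bind heparan sulfate and activate receptor tyrosine kinases, which signal through the RAS and MAP kinase cascade. In the lung, FGF10 from the distal mesenchyme acts on FGFR2 in the epithelium to drive bud outgrowth, and FGF7 from the mesenchyme acts on the same receptor, while FGF9 from the mesothelium and epithelium acts on the mesenchyme. FGF18 is a ligand known in cartilage and lung mesenchyme. The cascade induces the ETS factors ETV4 and ETV5 and the Sprouty proteins, which dampen receptor signalling, so that the transcripts of both are widely used as readouts of the pathway.

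All 10 genes were protein coding. In the annotation used for counting (GRCm39), Fgf7 lay at chr2:125876578-125933105 on the plus strand, Fgf9 at chr14:58308004-58350177 (plus), Fgf10 at chr13:118806327-118928651 (plus) and Fgf18 at chr11:33067430-33097400 (minus). Fgfr2 was annotated at chr7:129764181-132725079 (minus), a span that also overlaps many other genes, among them Tacc2, Bub3 and Ctbp2. The promoter window of its canonical transcript lay inside that span, at chr7:129867872-129868171. Spry1 lay at chr3:37694096-37698747 (plus), Spry2 at chr14:106129381-106134253 (minus) and Spry4 at chr18:38719300-38734468 (minus). Etv4 was at chr11:101660568-101676197 (minus) and Etv5 at chr16:22200059-22258469 (minus). Counts were taken per gene, so the epithelial and mesenchymal splice forms of Fgfr2, which bind different ligands, could not be told apart. The exons of Fgfr2 shared 314 bases (3.04%) with those of Ctbp2 on the same strand. Spry1 shared 710 exon bases (24.4%) with Gm42922 on the opposite strand, a locus with 466 counts over all libraries, and Fgf10 shared 123 exon bases (2.67%) with Gm16263, which had 687. The sources used here do not state the strand setting of the counting.

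Since the Etv factors bind a core of GGAA, the ETS-type words CCGGAA and AGGAAGT were searched on both strands from 250 bases before to 50 bases after the start of the canonical transcript of each member. CCGGAA was found in the windows of Spry2 and Spry4 and in none of the other 8, while 18.1% of 21583 such windows of protein-coding genes held it. AGGAAGT was found in no member and in 9.06% of the windows. The Spry2 match is given because Spry2 is a readout of the pathway and its match lies on the gene's own strand. The word starts at base +34 of the transcript. The sequence shown covers chr14:106134205-106134230 (GRCm39, minus strand, written 5′ to 3′), with the searched word in capitals between 10 bases on each side. A match of letters is not evidence of binding.

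Spry2: gtcatctatcCCGGAAtccgggaggg

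Library totals ran from 18369905 to 72991481 counts. The 32 libraries of trachea, lung and diaphragm and the 25 of somites and iBAT were sequenced at different centres, the first as single reads and the second as read pairs, so a difference in level between those sets cannot be told apart from the centre. Hoxa5 itself was lower in the mutant libraries in all 7 contexts without overlap, by 0.92 to 1.94 on the log2 scale (edgeR, adjusted p from 2.6e-06 to 0.0475). Some libraries stood apart from their group. Trachea Hoxa5-/- replicate 3 had a summed level of skeletal muscle markers of 3073 TPM (transcripts scaled to a fixed library total) against 51.3 to 650 in the other trachea libraries, and of cartilage markers of 4155 against 962 to 1710. Trachea wt replicate 3 had a summed level of distal lung epithelium markers of 552 TPM. The median of the wt trachea libraries was 157, and the mutant trachea libraries had 157 to 190. In diaphragm, wt replicate 3 had a summed level of distal lung epithelium markers of 430 TPM against 19 to 30.3 in the others, and Hoxa5-/- replicate 3 had cartilage markers at 386 TPM against 19 to 42.2. In lung at E15.5, Hoxa5-/- replicate 4 held 12% of its counts in 1 ribosomal RNA gene, Rn18s-rs5, which lowers the TPM of all other genes there. In bulk tissue, fewer cells of a type and less RNA per cell cannot be told apart.

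The ligands differed in the wt context where each was highest. Levels are means of TPM ± SD over libraries (n = 4, or 5 for iBAT), and the order across the separately normalised sets is a description. Fgf10 reached 42.8 ± 5.1 TPM in lung at E15.5, 23.6 ± 2.2 in the E12.5 lung and 17.7 ± 2.1 in trachea. It was 7.39 ± 3.3 in diaphragm and lowest in somites at E10.5 (2.30 ± 0.88). Libraries of lung at E15.5 did not overlap with those of any other context, whereas trachea and somites at E12.5 (16.9 ± 2.1) overlapped. Fgf7 was highest in somites at E12.5 (17.7 ± 3.1) and diaphragm (14.5 ± 2.2), which overlapped, and was near 1 TPM in lung at E12.5 (1.14 ± 0.08) and somites at E10.5 (1.26 ± 0.091). Fgf18 was highest in somites at E12.5 (64.4 ± 5.0) and next in trachea (36.7 ± 6.1), with no overlap between them. Fgf9 lay between 6.16 and 7.66 TPM in somites at E12.5, lung at E12.5, diaphragm and lung at E15.5, where neighbours in the order overlapped. It was 1.43 ± 0.45 in trachea, and in iBAT it had 0 to 4 counts per wt library.

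**Figure D1:**
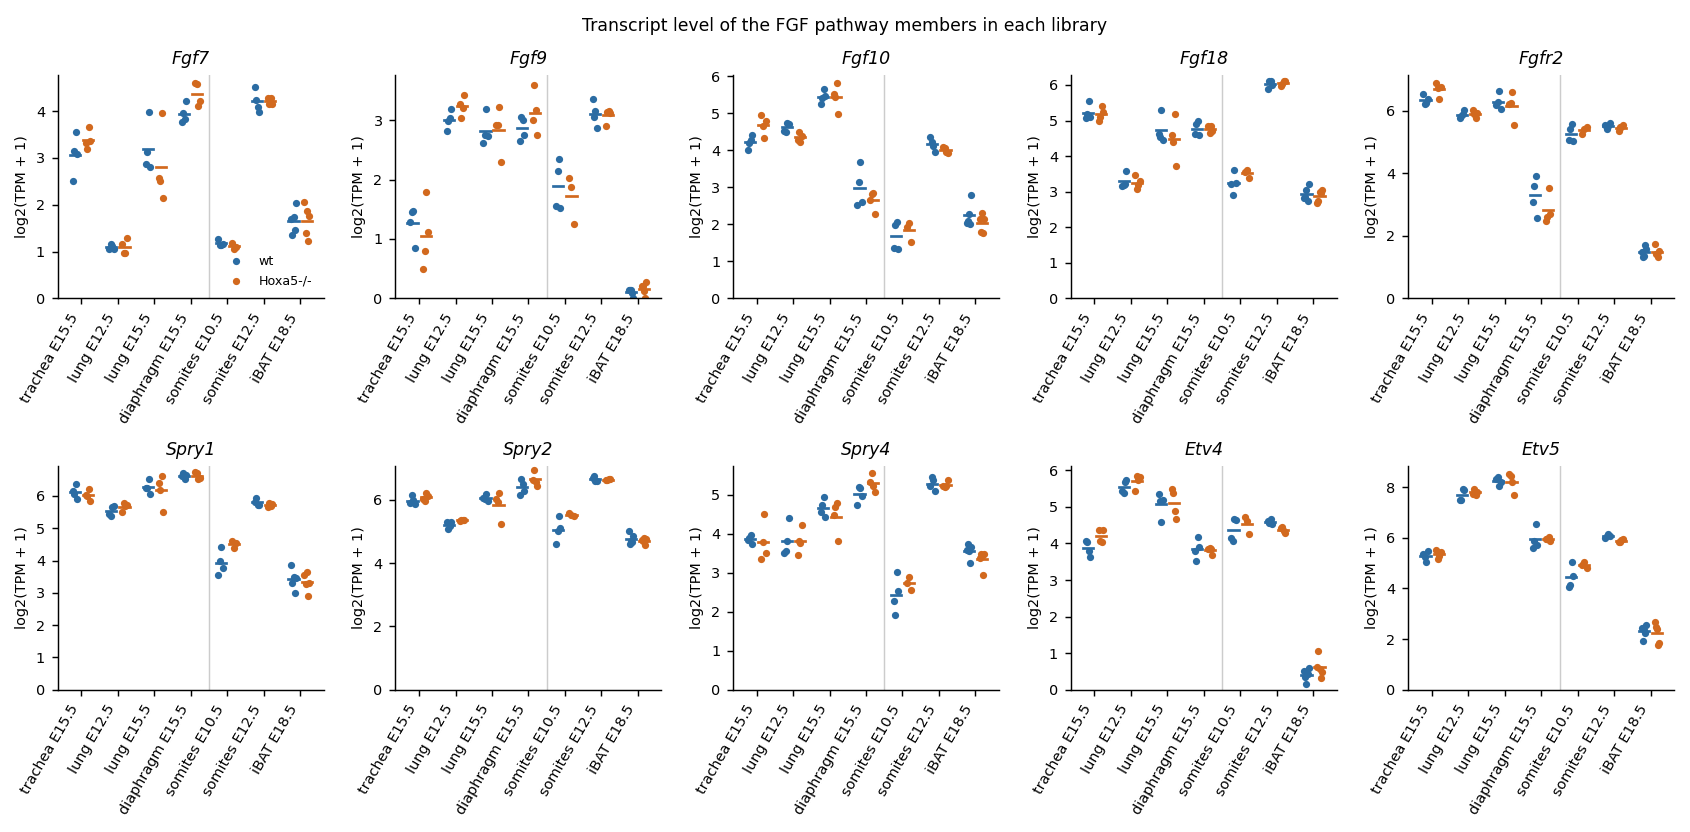
Level of each of the 10 genes, as log2(TPM + 1) on the y axis with 1 panel per gene, in every library of the 7 contexts on the x axis. Points are single wt (blue) and Hoxa5-/- (orange) libraries, short bars are group means of the log values, and a vertical line parts the sequencing centres. Etv5 stands highest in lung, and Fgfr2 is low in diaphragm and iBAT.

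Fgfr2, the receptor for FGF7 and FGF10, was highest in trachea (80.9 ± 8.4 TPM) and lung at E15.5 (78.6 ± 14), which overlapped. It was 58.0 ± 4.4 in lung at E12.5, 45.2 ± 2.6 and 38.2 ± 7.2 in somites at E12.5 and E10.5, 9.48 ± 4.1 in diaphragm and 1.84 ± 0.31 in iBAT. The drop from somites to diaphragm and from diaphragm to iBAT showed no overlap between libraries.

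The Sprouty genes followed another order. Spry1 was highest in diaphragm (97.5 ± 5.4 TPM), and Spry2 (100.3 ± 5.8) and Spry4 (38.05 ± 4.3) in somites at E12.5, with diaphragm next for both and overlapping. In TPM, Spry1 and Spry2 were lowest in iBAT, at 9.92 ± 2.4 and 26.3 ± 3.4, and Spry4 in somites at E10.5 (4.62 ± 1.8). That order depended on the scale. As TMM-normalised reads per kilobase, Spry1 was at 4.96 in wt iBAT and 3.49 in wt somites at E10.5. Spry2 was at 13.1 and 7.86 on that scale. Of the summed Sprouty transcripts, Spry1 made up 45.8% to 48.0% in wt trachea, lung and diaphragm but 20.9% to 28.3% in somites and iBAT, where Spry2 made up 52.0% to 63.2%. That split falls between the sequencing centres and cannot be told apart from them.

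Etv5 was the most abundant member in lung. It reached 302 ± 33 TPM at E15.5 and 208 ± 34 at E12.5, against 62.2 ± 20 in diaphragm, 38.2 ± 5.0 in trachea and 4.0 ± 0.81 in iBAT. Etv4 was highest in lung at E12.5 (46.3 ± 5.9) and then in lung at E15.5 (33.3 ± 7.2), without overlap, and was 0.336 ± 0.15 in iBAT. Etv5 made up 90.1% of the Etv4 and Etv5 transcripts in lung at E15.5 and 51.0% in somites at E10.5. Among the ligands, Fgf10 held 51.7% of the summed level of the 4 in lung at E15.5 and 58.2% in the E12.5 lung, whereas Fgf18 held 57.7% in trachea, 48.5% in diaphragm and 60.4% in somites at E12.5.

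**Figure D2:**
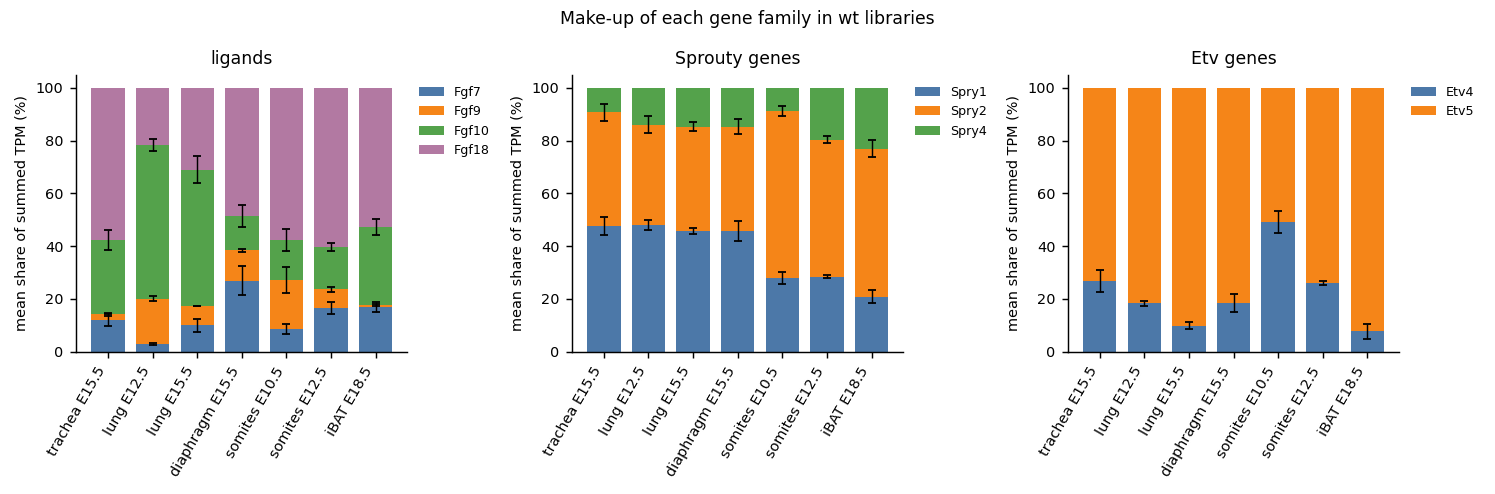
Share (percent of summed TPM, y axis) of each ligand, each Sprouty gene and each Etv gene within its family in the wt libraries of the 7 contexts (x axis), drawn as stacked bars of group means with error bars of 1 SD over libraries. Fgf10 is the largest ligand share in lung and Fgf18 in the other contexts.

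To ask how the pathway differed between stages and tissues, wt groups were compared with edgeR's quasi-likelihood test. A gene was called at a Benjamini-Hochberg adjusted p under 0.05 with a fold change of at least 1.5, among genes with a mean of 1 TPM or more in a group of the comparison. A gene under that minimum in 1 group was tested only through the other group, so its direction was fixed by the filter. From E12.5 to E15.5 in lung, 6 of the 10 members rose and none fell, against 24.6% of all genes tested that were called (15.4% higher and 9.15% lower). The median log2 fold change of the members was 0.77, and that of all genes was -0.01. Fgf7 was at 1.08, 1.23, 1.18 and 1.06 TPM in the E12.5 libraries and at 6.27, 7.72, 14.8 and 6.02 at E15.5. The stages did not overlap, and Fgf7 rose by 2.89 on the log2 scale (SE 0.308, adjusted p = 3.84e-05). Fgf18 rose by 1.54 (SE 0.211), and Fgf10, Spry1, Spry2 and Spry4 rose by 0.71 to 0.83. Etv5 was higher by 0.51 (SE 0.108, adjusted p = 0.00305) and Fgfr2 by 0.40 (SE 0.111, adjusted p = 0.012), both under the fold minimum. Etv4 was lower, with a log2 fold change of -0.51 (SE 0.149, adjusted p = 0.0168), and Fgf9 gave -0.23 (SE 0.154, adjusted p = 0.242). Summed markers of distal lung epithelium went from between 223 and 261 TPM at E12.5 to between 3082 and 9273 at E15.5. Their part in these differences was not tested.

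**Figure D3:**
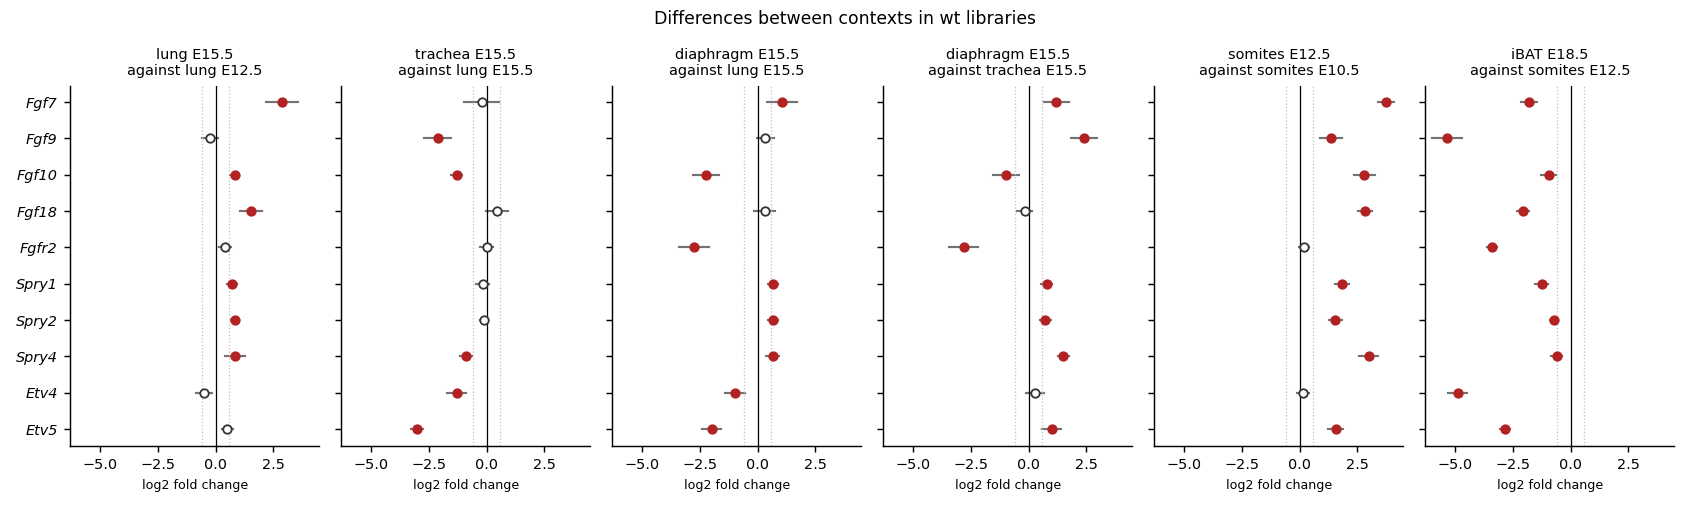
Log2 fold change (x axis) of each member (y axis) in the 6 comparisons between wt contexts, 1 panel each, with bars for the 95% confidence interval and filled points for called members. Dotted lines mark the 1.5-fold limits. Members lie on both sides of 0 in the panel of diaphragm against lung and all lie below 0 in the panel of iBAT against somites.

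Of the other ligands in the developing lung, 2 of 7 tested rose and 3 fell, against 15.4% and 9.15% of all genes. Fgf1 rose from 1.39 ± 0.53 to 47.9 ± 14 TPM (log2 fold change 5.10, SE 0.284), Fgf2 rose by 2.37, and Fgf5 fell by 2.46. Among the other receptors, Fgfr4 (2.7) and Fgfr3 (2.09) rose. Of 11 other targets and modulators of the pathway, 2 rose and 2 fell, among them the secreted carrier Fgfbp1 (1.96) and the adhesion molecule Flrt2 (-1.20). None of the 16 genes of the RAS and MAP kinase cascade was called by edgeR. An unadjusted p under 0.05 was reached by 6 of them, against 56.7% of all genes tested. The heparan sulfate endosulfatases Sulf1 and Sulf2, which trim the sugar chains that FGFs bind, fell by 1.90 and 1.28.

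Trachea and lung at E15.5 expressed Fgfr2 at levels that did not differ in the test, but 5 of the 10 members were lower in trachea and none higher (30.2% of all genes were called, 20.1% higher and 10.1% lower). Etv5 was at 39.6, 36.8, 32.3 and 44.1 TPM in the trachea libraries and at 322, 333, 259 and 296 in lung. Every lung library was far above every trachea library, and Etv5 fell by 3.02 on the log2 scale (SE 0.117, adjusted p = 3.27e-07), a difference of 8.12-fold. Fgf9 was lower by 4.36-fold, Fgf10 by 2.47-fold, Etv4 by 2.46-fold and Spry4 by 1.86-fold, with adjusted p from 2.16e-05 to 0.000361. Fgfr2 had a log2 fold change of 0.01 (95% confidence interval -0.27 to 0.29), and Spry1 and Spry2 had intervals of -0.45 to 0.09 and -0.30 to 0.07. Fgf18 was at 0.45 (SE 0.213, adjusted p = 0.111). It was called when lung replicate 3 was left out (0.69, adjusted p = 0.00585). Of the other pathway lists, 6 of 9 ligands were higher, led by Fgf16 (4.68) and Fgf14 (3.41), and Fgfr4 fell by 2.91 while the co-receptor Kl was higher (3.24). The feedback phosphatase Dusp6 fell by 0.83 and Flrt2 rose by 2.60. Summed distal lung epithelium markers were 127 to 552 TPM in wt trachea, with a median of 157. The highest sum was that of replicate 3. Sftpc, a gene of that list, was at 288 TPM there against 2.47 to 19.98 in the other wt trachea libraries. The part of these markers in the Etv5 difference was not tested.

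Diaphragm at E15.5 was set against lung and against trachea, comparisons that share its wt libraries. Against lung, 4 members were higher and 4 lower (36.4% of all genes called, 20.9% higher and 15.6% lower), and against trachea 6 were higher and 2 lower (32.5%, with 14.1% higher and 18.4% lower). Fgfr2 was at 7.57, 11.2, 14.2 and 4.93 TPM in diaphragm, at 71.6, 77.8, 98.6 and 66.2 in lung and at 92.5, 74.1, 75.2 and 81.8 in trachea. It fell by 2.76 (SE 0.284) against lung and by 2.81 (SE 0.274) against trachea. Fgf10 fell as well, by 2.24 and 0.98. All 3 Sprouty genes were higher in diaphragm in both comparisons, with log2 fold changes of 0.66 each against lung and of 0.79 for Spry1, 0.73 for Spry2 and 1.51 for Spry4 against trachea. Fgf7 was higher too, by 1.05 and 1.21. Etv5 lay between the other tissues, with -1.98 (SE 0.183) against lung and 0.99 (SE 0.188) against trachea. Epithelial markers summed to between 33.9 and 273 TPM in wt diaphragm, between 1352 and 1882 in lung and between 1258 and 2230 in trachea. In diaphragm, wt replicate 3 had the highest Fgfr2, Fgf10 and Etv5 of its group and the highest epithelial sum. Without it, Fgfr2 was at -2.99 against lung and -3.00 against trachea, and no member lost its call. The part of epithelium in the Fgfr2 difference was not tested.

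Of the other ligands, 8 of 11 tested were higher in diaphragm than in lung and 1 lower, against 20.9% and 15.6% of all genes. Ligands under 1 TPM in lung, such as Fgf6, were tested only through diaphragm, so their direction was fixed by the filter. Fgf6, a ligand of skeletal muscle, was at 15.7 ± 2.4 TPM in wt diaphragm, at 0 in every wt lung library and at 0.0644 ± 0.053 in trachea. Fgf16 was higher than in lung (5.82), Fgfr3 fell by 3.61 against lung and 3.72 against trachea, and Fgfr4 was higher than in trachea (3.66, SE 0.142), at 156 ± 10.4 TPM. Within the cascade, Map2k1 was higher by 1.36 and 1.41. Summed skeletal muscle markers reached 13674 to 28246 TPM in wt diaphragm against 8.88 to 20.9 in lung. Liver cell (hepatocyte) markers summed to 1516 to 8569 TPM in wt diaphragm, against 4.14 to 42.4 in lung and 7.06 to 50.8 in trachea. The part of either cell type in these differences was not tested.

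In the somite segments, 8 of 10 members rose from E10.5 to E12.5 and none fell, against 42.6% of all genes called (24.1% higher and 18.4% lower). Their median log2 fold change was 1.71, while that of all genes was -0.04. Fgf7 rose by 3.74 (SE 0.162), Spry4 by 2.99 (SE 0.196), Fgf18 by 2.84 (SE 0.142) and Fgf10 by 2.81 (SE 0.207). Spry4 was at 3.83, 2.78, 7.10 and 4.78 TPM at E10.5 and at 36.4, 42.6, 40.3 and 32.8 at E12.5, with no overlap. Spry1, Etv5, Spry2 and Fgf9 rose by 1.85, 1.57, 1.55 and 1.37. Fgfr2 and Etv4 were not called, with log2 fold changes of 0.18 (95% confidence interval -0.05 to 0.40) and 0.15 (-0.12 to 0.41). Among other ligands, Fgf16 (6.49), Fgf1 (3.66) and Fgf2 (3.33) rose and Fgf15, which fell by 3.57, went from 8.13 ± 1.5 to 0.716 ± 0.34 TPM. Fgfr4 rose by 3.43, Fgfbp1 by 3.42 and Sulf1 by 2.04, and Fgfbp3 fell by 2.94. Skeletal muscle markers summed to 149 to 297 TPM at E10.5 and to 1927 to 2969 at E12.5, and cartilage markers to 285 to 411 and 1973 to 2775. Other sums were lower at the later stage. Neural markers went from between 717 and 1187 TPM to between 232 and 515. Somite markers went from between 303 and 375 to between 268 and 275. The part of any of these in the member differences was not tested.

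Brown fat at E18.5 had all 10 members below somites at E12.5 (66.3% of all genes were called, 31% higher and 35.3% lower), in a comparison where tissue and stage change together. Their median log2 fold change was -1.94, and that of all genes was -0.16. Fgf9 fell by 5.38 (SE 0.301), Etv4 by 4.90 (SE 0.194), Fgfr2 by 3.42 (SE 0.0993) and Etv5 by 2.84 (SE 0.105). Fgf9 and Etv4 had means of only 0.0749 and 0.336 TPM in wt iBAT. They were tested only through somites, so their direction was fixed by the filter. Spry2 and Spry4 fell least, by 0.73 (SE 0.0789) and 0.60 (SE 0.110). Spry4 missed the fold minimum under DESeq2 (-0.57) and under 6 other settings. The ratio of TMM-normalised reads per kilobase to TPM was 0.227 to 0.528 over the groups and highest in iBAT. Against somites, TPM thus put iBAT lower than the TMM scale did. The sets were normalised separately, so the ratio does not place iBAT against trachea, lung or diaphragm. Which scale is closer to the true level was not tested. All 10 members stayed lower in iBAT on both scales. Of the other pathway genes, Klb, the co-receptor for endocrine FGFs, rose from 0.235 ± 0.18 to 40.9 ± 5.1 TPM (8.65, SE 0.240). Fgfr4 fell by 6.05, Flrt3 by 5.26 and Sulf2 by 3.43. Fgf4 and Fgf8 were at 0 in every wt iBAT library and at 1.97 ± 0.19 and 2.46 ± 1.04 TPM in somites at E12.5. Brown fat markers summed to 6512 to 11913 TPM in wt iBAT and 25.1 to 29.1 in somites.

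To find whether loss of Hoxa5 altered the pathway, the genotypes were compared within each context. None of the 10 members was called in any of the 7 contexts by edgeR, and none by DESeq2. All genes called made up 0.0156% of those tested in trachea, 0.0798% in lung at E12.5, 0.124% in lung at E15.5, 0.594% in diaphragm, 0.0215% in somites at E10.5, 0.00529% in somites at E12.5 and 0.00657% in iBAT. Fgf9 and Etv4 were under 1 TPM in iBAT and were not tested there, which left 68 tests. The lowest adjusted p was 0.231, and log2 fold changes of Hoxa5-/- over wt ran from -0.55 to 0.54. The 95% confidence interval lay within 1.5-fold in either direction in 46 of the 68 and within 2-fold in 63. No gene of the other pathway lists was called in any context either.

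**Figure D4:**
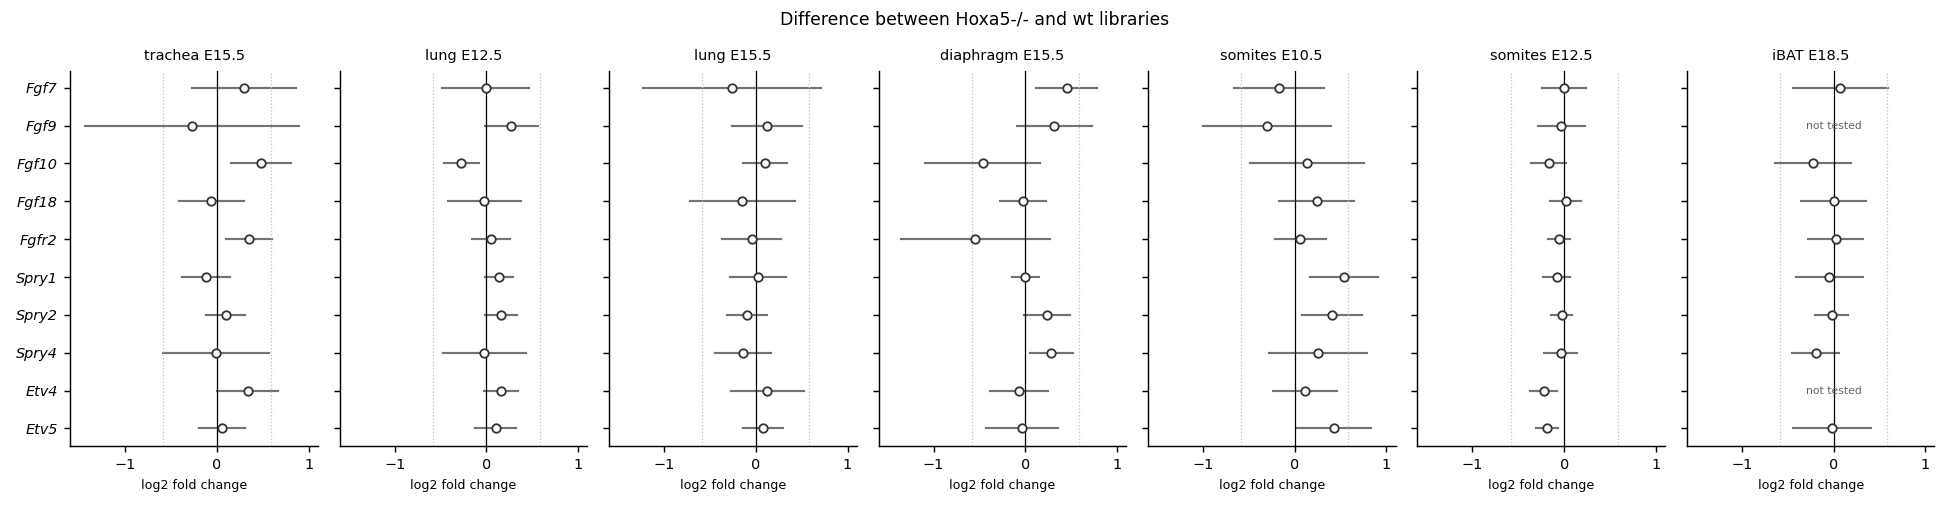
Log2 fold change of Hoxa5-/- over wt (x axis) for each member (y axis) in the 7 contexts, 1 panel each, with bars for the 95% confidence interval and dotted lines at the 1.5-fold limits. No member is called, and the intervals are narrowest in somites at E12.5 and widest for Fgf9 in trachea.

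An unadjusted p under 0.05 was reached by 3 members in trachea, 1 in lung at E12.5, 2 in diaphragm, 3 in somites at E10.5, 2 in somites at E12.5 and none in lung at E15.5 or iBAT. Over all genes the shares at that limit were 6.7%, 8.01%, 13%, 12.7%, 3.24%, 6.32% and 2.47% in the same order. The TPM of the genotypes did not overlap for Spry2 in lung at E12.5, for Spry2 in somites at E10.5 and for Etv4 and Etv5 in somites at E12.5. Of all genes, 3.74% did not overlap in trachea, 4.09% in lung at E12.5, 2.96% in lung at E15.5, 6.87% in diaphragm, 7.37% in somites at E10.5, 2.51% in somites at E12.5 and 0.316% in iBAT.

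In trachea, Fgf10 was at 15.2, 17.3, 18.3 and 20.2 TPM in wt and at 29.8, 24.1, 19.3 and 26.7 in Hoxa5-/- libraries. Only mutant replicate 3 lay within the wt range. The log2 fold change was 0.48 (SE 0.146, unadjusted p = 0.0098, adjusted p = 0.682 by edgeR). Fgfr2 was at 92.5, 74.1, 75.2 and 81.8 in wt and at 117, 106, 81.8 and 108.8 in mutant trachea, again with replicate 3 lowest of the mutants (0.35, SE 0.110, adjusted p = 0.682). Etv4 gave 0.33 (SE 0.145, adjusted p = 0.736). The third mutant library is the one with high muscle and cartilage markers. Without it the values were 0.59 for Fgf10 (adjusted p = 0.232), 0.45 for Fgfr2 (adjusted p = 0.179) and 0.40 for Etv4 (adjusted p = 0.325), still not called. The Sprouty genes and Etv5 gave -0.12 to 0.09 with all libraries. Epithelial marker sums overlapped, at 1258 to 2230 TPM in wt and 1466 to 1722 in mutant trachea.

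In lung at E12.5, Fgf10 was at 21.8, 21.5, 25.8 and 25.3 TPM in wt and at 18.4, 21.6, 17.7 and 19.8 in Hoxa5-/- libraries. The groups overlapped by mutant replicate 2, and the log2 fold change was -0.27 (SE 0.0861, unadjusted p = 0.00945, adjusted p = 0.43). Spry2 was at 38.3, 32.8, 34.8 and 38.4 in wt and at 39.7, 40.0, 39.8 and 40.2 in mutant lungs. All mutant values were above all wt values, by a log2 fold change of 0.16 (SE 0.0787, adjusted p = 0.649). All 10 intervals lay within 1.5-fold in this context.

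By E15.5 in lung, no member came near the threshold (lowest adjusted p 0.924). Fgf10 was at 37.3, 41.6, 49.6 and 42.8 TPM in wt and at 45.0, 42.1, 55.4 and 30.3 in Hoxa5-/- libraries, with a log2 fold change of 0.10 (SE 0.108). Mutant replicate 4, the library rich in ribosomal RNA, was the lowest of its group for every member in TPM. Without it the members gave -0.12 (Fgf7) to 0.20 (Fgf9), and Fgf10 gave 0.13 (SE 0.119). Replicate 3 of both genotypes stood apart. Fgf7 was at 14.8 TPM in wt replicate 3 against 6.02 to 7.72 in the other wt libraries, and at 14.6 in mutant replicate 3 against 3.42 to 4.99. Fgf18 was likewise highest in these libraries (38.5 and 35.3), and Etv4 was lowest of its group in wt replicate 3 (23). Summed distal lung epithelium markers were 9273 and 9282 TPM in them against 1499 to 6098 in the rest. The part of these cells in the level of Fgf7 was not tested. With all libraries Fgf7 gave -0.26 (SE 0.433, 95% confidence interval -1.24 to 0.71). Without mutant replicate 3 it gave -0.86 (SE 0.305, unadjusted p = 0.0193, adjusted p = 0.349), and without wt replicate 3 the sign turned, to 0.13 (SE 0.4003, unadjusted p = 0.751).

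**Figure D5:**
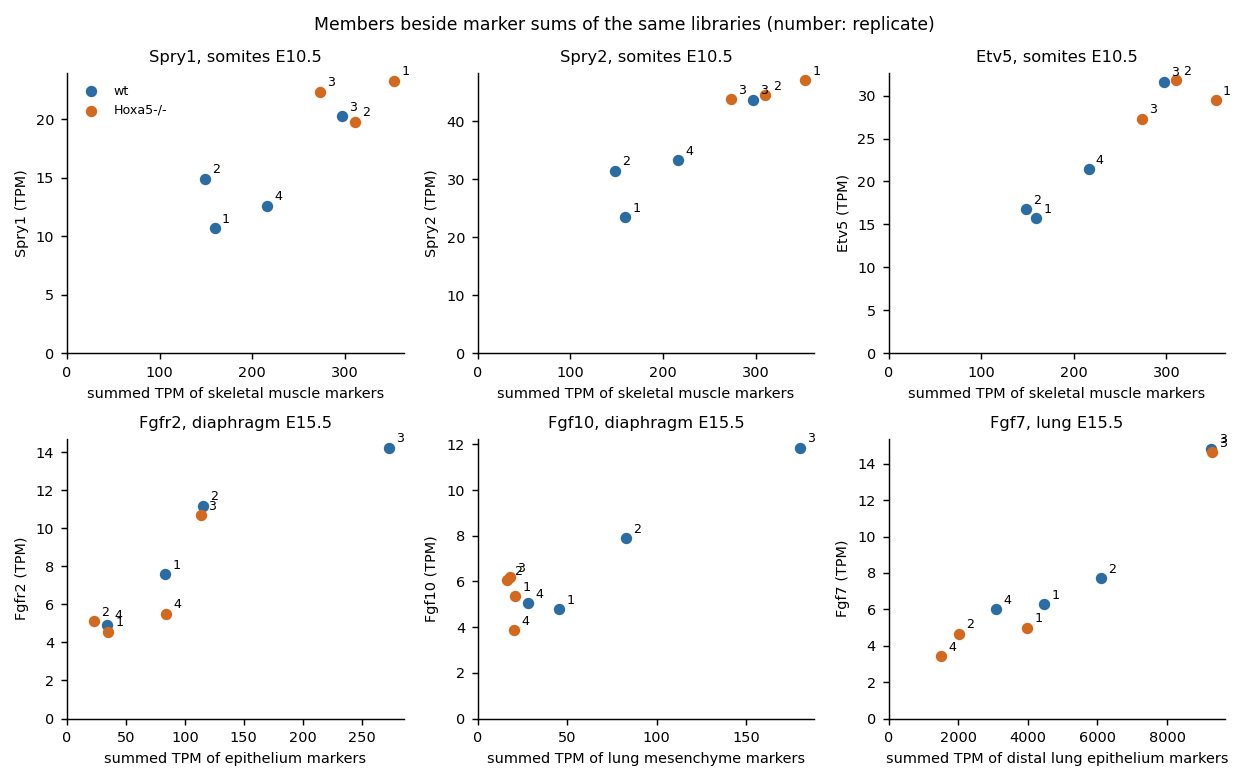
TPM of a member (y axis) against the summed TPM of a marker list (x axis) in each library of 1 context, for Spry1, Spry2 and Etv5 in somites at E10.5 with skeletal muscle markers, Fgfr2 and Fgf10 in diaphragm with epithelial and lung mesenchyme markers, and Fgf7 in lung at E15.5 with distal epithelium markers. Points are single wt and Hoxa5-/- libraries with their replicate numbers, and replicate 3 of each genotype in lung sits alone at the upper right.

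The log2 fold change of Fgfr2 had a larger SE in diaphragm than in the other 6 contexts. The gene was at 7.57, 11.2, 14.2 and 4.93 TPM in wt and at 4.56, 5.11, 10.7 and 5.52 in Hoxa5-/- libraries. The groups overlapped widely, with a log2 fold change of -0.55 (SE 0.357, adjusted p = 0.567). Fgf10 was at 4.79, 7.88, 11.9 and 5.05 in wt and at 5.34, 6.04, 6.18 and 3.87 in the mutants (-0.46, SE 0.276, adjusted p = 0.528). Summed epithelial markers were 83.0, 116, 273 and 33.9 in wt and 35.1, 22.7, 114 and 84.1 in mutant diaphragm. Of that list, Esrp1 was at 2.62, 4.59, 7.44 and 0.189 TPM in wt and at 0.0963, 0.0597, 0.0165 and 0.0516 in the mutants. Epcam was at 7.80, 16.1, 57.2 and 1.58 in wt and at 2.21, 1.48, 1.61 and 1.22 in the mutants. Most of the mutant sums came from other genes of the list. Lung mesenchyme markers summed to 45.6, 82.5, 180 and 28.1 in wt and 16.3 to 21 in the mutants. Wt replicate 3 was highest for Fgfr2, for Fgf10 and for both marker sums. Without it Fgfr2 was at -0.29 and Fgf10 at -0.15. Without mutant replicate 3, the library with cartilage markers, Fgfr2 was at -0.89 (unadjusted p = 0.0197, adjusted p = 0.346). Summed hepatocyte markers varied widely, from 1516 to 8569 TPM in wt and from 348 to 10552 in mutant diaphragm. The part of any cell type in the Fgfr2 and Fgf10 values was not tested. Fgf7 was at 12.7, 14.5, 13.2 and 17.6 TPM in wt and at 23.3, 22.8, 16.3 and 17.6 in mutant libraries (0.45, SE 0.145, unadjusted p = 0.0129, adjusted p = 0.231). Spry4 gave 0.29 (SE 0.104, adjusted p = 0.289), and the 95% confidence interval of Spry1 ran from -0.15 to 0.15.

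In somites at E10.5, Spry1, Spry2 and Etv5 had higher mean values in the mutant libraries and were not called, and leaving out 1 wt library changed the call of Spry1 and Etv5. Spry1 was at 10.7, 14.9, 20.2 and 12.6 TPM in wt and at 23.3, 19.8 and 22.4 in Hoxa5-/- libraries. Spry2 was at 23.4, 31.5, 43.7 and 33.2 in wt and at 47.1, 44.5 and 43.8 in the mutants, and Etv5 at 15.7, 16.8, 31.6 and 21.4 against 29.4, 31.8 and 27.3. In all 3 genes wt replicate 3 was the highest wt library and lay at or close to the mutant values, while the other 3 wt libraries were below every mutant. The log2 fold changes were 0.54 for Spry1 (SE 0.170, unadjusted p = 0.00942), 0.41 for Spry2 (SE 0.148, unadjusted p = 0.0184) and 0.43 for Etv5 (SE 0.182, unadjusted p = 0.0388), each with an adjusted p of 0.391. When wt replicate 3 was left out, Spry1 (0.70, SE 0.138, adjusted p = 0.0174) and Etv5 (0.65, SE 0.111, adjusted p = 0.0149) were called, and Spry2 (0.55, adjusted p = 0.0233) stayed under the fold minimum. In the same fit the number of all genes called went from 4 to 386.

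Some marker sums were set beside these values. Summed skeletal muscle markers were 159, 149, 297 and 216 TPM in the wt libraries and 353, 311 and 273 in the mutants, which overlapped. Summed epithelial markers were 56.1, 91.0, 91.7 and 54.3 in wt and 93.9, 103 and 99.6 in the mutants, without overlap. Endothelial markers did not overlap either, at 133 to 165 in wt and 167 to 188 in the mutants, and mesothelial markers were at 14.9 to 33.8 and 31.5 to 36.7. The part of any of these in the Sprouty and Etv5 values was not tested. The other members gave -0.30 (Fgf9) to 0.26 (Spry4), and Fgfr2 gave 0.06 (95% confidence interval -0.22 to 0.35). The median of the members was 0.19, and that of all genes was -0.01.

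In somites at E12.5 the Etv genes had slightly lower values in the mutants. Etv5 was at 62.5, 66.6, 69.2 and 65.3 TPM in wt and at 55.4, 55.5, 59.3 and 61.2 in Hoxa5-/- libraries. Etv4 was at 23.3, 22.5, 24.7 and 22.2 in wt and at 20.4, 21, 19.2 and 18.6 in the mutants. Neither overlapped, with log2 fold changes of -0.18 for Etv5 (SE 0.0555, unadjusted p = 0.00667) and -0.22 for Etv4 (SE 0.0679, unadjusted p = 0.00742). The adjusted p was 0.999 for both, and all 10 intervals in this context lay within 1.5-fold.

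In iBAT the 8 tested members gave log2 fold changes from -0.22 (Fgf10) to 0.08 (Fgf7), and all 8 intervals lay within 2-fold. Fgf9 had 0 to 8 counts per library there and Etv4 3 to 29. These low counts limit what can be said of either in brown fat.

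Whether the genotype effect itself differed between contexts was tested with an interaction term. No member was called by edgeR in any of the 5 comparisons, and none by DESeq2. All genes called were 0.0267% for lung at E15.5 minus E12.5, 0.00502% for lung minus trachea, 0.73% for diaphragm minus lung, 0.439% for diaphragm minus trachea and 0.0147% for somites at E12.5 minus E10.5. In the same order 1, 0, 1, 2 and 3 members had an unadjusted p under 0.05, against 5.25%, 5.04%, 8.46%, 9.07% and 14.3% of all genes. For diaphragm minus trachea, the differences in effect were -0.93 for Fgf10 (SE 0.324, unadjusted p = 0.0121, adjusted p = 0.333) and -0.87 for Fgfr2 (SE 0.395, unadjusted p = 0.0435, adjusted p = 0.534). They were -0.63 each without diaphragm wt replicate 3, and -1.02 and -0.96 without trachea mutant replicate 3 (adjusted p = 0.199 and 0.363). For somites, Spry1 gave -0.62 (SE 0.178, unadjusted p = 0.00281), Etv5 -0.61 (SE 0.188, unadjusted p = 0.00446) and Spry2 -0.44 (SE 0.151, unadjusted p = 0.00992), each with an adjusted p of 0.327. Without wt replicate 3 at E10.5, Spry1 (-0.77), Etv5 (-0.82) and Spry2 (-0.56) were called, along with 2580 genes in all against 3 with it. From the other lists, only Sulf2 was called. Its genotype effect was higher in diaphragm than in trachea by 0.75 on the log2 scale (SE 0.132, adjusted p = 0.0188). In trachea it was at 212 ± 31.7 TPM in wt and 143 ± 5.63 in mutant libraries, and in diaphragm at 115 ± 14.5 and 128 ± 7.86.

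Across the 14 group means of log2(TPM + 1), the members fell into partly different patterns. Each context entered as 2 groups, wt and Hoxa5-/-, between which no member was called, so the groups are not independent points. Pearson's r, a description over groups that share libraries of 2 centres, was 0.89 for Etv4 with Etv5 and 0.83 for Spry1 with Spry2. Over the 8 groups of trachea, lung and diaphragm it was 0.96 for Spry1 with Spry2, 0.89 for Fgf10 with Fgfr2 and -0.85 for Spry2 with Etv4, whereas over all 14 groups Spry2 with Etv4 gave 0.44. The genes closest to each member were searched among 16364 genes with a mean of 5 TPM or more in a group. Osbpl6, Arl4c and Lrrn3 were closest to Fgfr2 (r = 0.99 for the first), Btbd3, Ppp1r13b and F2rl1 to Fgf10 (0.98), and Ptgds, Ncoa1 and Tnn to Fgf7 (0.97). Atp9a and Prss12 were among the closest to Fgf18 (0.99 for the first) and Phldb2, A2m and Ada to Fgf9 (0.94). For the targets, Lrch1, Efhd2 and Pxn were closest to Spry1 (0.99), Igsf10, Pdgfa and Nbl1 to Spry2 (0.96), Vav1, C3ar1 and Myo1f to Spry4 (0.97), Tcof1, Dcakd and Sox12 to Etv4 (0.99), and Prag1, Ifit2 and Snx22 to Etv5 (0.98). With Spearman's correlation 5 of the 30 closest genes were still among the closest 3 of their member, and over the trachea, lung and diaphragm groups alone 1 of the 30 was.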

How the data were processed

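RNA was sequenced as polyA-selected libraries (TruSeq). Reads were trimmed by the authors (Trim Galore 0.6.5), mapped to GRCm39 (STAR 2.7.9a) and counted per gene (featureCounts 2.0.3) on an Ensembl 109 (GENCODE M32) annotation curated for Hox genes. They deposited raw counts and TPM values per gene for each set. The deposited counts were used for tests and the deposited TPM values for levels. Recomputing TPM from the counts and gene lengths gave the deposited values to within 2.91e-11. No 2 libraries held identical values (0 pairs), and 2573 gene names whose separators were written differently in the somite and iBAT tables were matched to the other tables.

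Genes with a mean of 1 TPM or more in a group of the comparison were tested with edgeR 4.0.16 (R 4.3.3, limma 3.58.1), with TMM normalisation, the quasi-likelihood F test (two-sided) and Benjamini-Hochberg adjustment over all genes tested. Genes were called when the adjusted p was below 0.05 and the change at least 1.5-fold, and on the adjusted p alone for interaction terms. Each comparison was fitted on its own groups. The SE was the log2 fold change divided by the square root of F. Library totals of 18369905 to 72991481 counts set the counting precision. The test was checked on simulated counts, where 57 to 96 of 100 genes changed 2-fold and 87 to 100 of 100 changed 4-fold were called, depending on the comparison. The changed genes were drawn from well-counted genes. They outnumbered the genes called by genotype in every context. The check therefore does not cover genes with low counts or changes under 2-fold. Per the study's methods and legends, the libraries of a group were biological replicates from different embryos. Litters are not given in the sources used here.

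The members and gene lists were chosen with earlier results of these data known. The text names the 10 members in every comparison, up to 4 called genes of each other pathway list with the largest change, and for each member the 3 genes of most similar pattern, of which 1 is not reported here. Libraries with the same number deviated together in every pair (correlation over 0.1) in iBAT between genotypes (0.105 to 0.279, 5 of 5) and in wt trachea against lung at E15.5 (0.142 to 0.487, 4 of 4). Between genotypes, 3 of 4 pairs in diaphragm (-0.0563 to 0.53) and 2 of 4 in lung at E15.5 (-0.143 to 0.555) passed 0.1. So did 2 of 4 in trachea (-0.0782 to 0.438) and 2 of 4 in somites at E12.5 (-0.0348 to 0.241). A replicate block was therefore tried there and elsewhere as an alternative. The iBAT sample names carry a leading number that wt and Hoxa5-/- libraries share, and replicates 4 and 5 of both genotypes carry the same one. Its meaning is not given in the sources used here, and a block on it was tried in iBAT. Other alternatives were DESeq2 1.42.0, its size factors in edgeR, other filters, no fold minimum, 1 fit over all libraries of a set, TMM-normalised counts per kilobase in place of TPM, and leaving out each library. Levels were computed in Python 3.11.15 (pandas 2.3.3, numpy 2.4.6) and plotted with matplotlib 3.10.9. Promoter windows were read from the GRCm39 genome at transcript starts of the deposited annotation.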

Additional observations from a re-analysis of the deposited data

Results flagged for a closer look

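In 8 of 130 groups of 4 or 5 values (6.15%), 1 library lay further from the others than Dixon's limit, which chance passes in about 1 in 20 groups. Fgf7 was at 14.6 TPM in Hoxa5-/- replicate 3 of lung at E15.5 against 3.42 to 4.99 in the others, and Fgf18 was at 38.5 in wt replicate 3 of the same context against 20.9 to 23.7. Fgfr2 was at 10.7 TPM in Hoxa5-/- replicate 3 of diaphragm against 4.56 to 5.52. Fgf18 was at 10.9 in wt replicate 4 of lung at E12.5 against 7.97 to 8.20. In somites, Fgf7 was at 1.39 in wt replicate 1 at E10.5 against 1.2 to 1.23, and Fgf9 was at 6.47 in Hoxa5-/- replicate 1 at E12.5 against 7.70 to 7.94. In iBAT, Fgf10 was at 5.95 in wt replicate 5 against 3.05 to 3.86, and Spry4 at 6.74 in Hoxa5-/- replicate 4 against 9.30 to 10.1.

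The genotype effect on Sulf2, an extracellular heparan sulfate sulfatase, differed between diaphragm and trachea by 0.75 on the log2 scale in the interaction test. Its adjusted p was 0.0188, and ran up to 0.0918 in 1 fit over all libraries of the set. It was 0.0517 without wt replicate 1 of diaphragm and 0.0523 without Hoxa5-/- replicate 1. Within each tissue the genotype effect was not called, at -0.57 in trachea (adjusted p = 0.375 by edgeR) and 0.16 in diaphragm (adjusted p = 0.437).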

How the results depend on the processing

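Of the genotype comparisons, the number of members called stayed at 0 under every alternative run, except in somites at E10.5, where leaving out 1 library gave 0 to 2, the 2 being Spry1 and Etv5 without wt replicate 3. The interaction in somites gave 2 (Spry1 and Etv5) with no filter on low counts and 0 to 3 when 1 library was left out, the 3 again without that library. No called member changed sign under any alternative run. With the replicate block, members called were 0 in every genotype and interaction comparison and 6, 5, 8, 8, 8 and 10 in the wt comparisons, as without it. In wt lung, dropping the fold minimum gave 9 members against 6, and Etv4 (-0.59) was called without E15.5 replicate 1. Spry4 in diaphragm against lung (0.58) missed the fold minimum without lung replicate 4, and Spry4 in iBAT was at -0.53 to -0.58 in the 7 settings where it missed it. All genes called by genotype moved more: with DESeq2 they were 52 against 3 in trachea, 81 against 14 in lung at E12.5, 83 against 22 in lung at E15.5, 406 against 107 in diaphragm, 18 against 4 in the earlier somites, 2 against 1 in the later ones and 4 against 1 in iBAT. With the block they were 1, 4, 104, 358, 0, 2 and 2 in the same order. The causes were not tested. With TMM-normalised counts per kilobase in place of TPM, 5 of 10 members kept their highest wt context and 7 their lowest. Fgf18, Spry1 and Spry2 were then lowest in somites at E10.5 and no longer in iBAT. Fgf7, Fgf9, Spry2 and Spry4 were highest in diaphragm, and Fgfr2 in lung at E15.5. With 3 to 5 libraries a group, variable genes had wide 95% confidence intervals, from -1.24 to 0.71 on the log2 scale for Fgf7 in lung at E15.5 and from -1.36 to 0.27 for Fgfr2 in diaphragm.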
